A study of Mus musculus with 50 samples.

Results

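The 10 genes described here encode products by which natural killer (NK) cells and cytotoxic T cells kill: the granzymes Gzma, Gzmb and Gzmk, the pore-forming protein Prf1, the granule protein Nkg7, the cytokine Ifng, the death ligand Fasl, and the receptors Ncr1, Klrk1 and Klrb1c. They were chosen by name, with earlier results of these data known, and each name was matched to 1 of the 37469 gene identifiers in the count table. All 10 passed the filter on low counts, which 19327 genes passed. Bulk RNA sequencing had measured them in 48 mouse sarcomas, 32 primary and 16 transplant, and in 2 single libraries of the line 402230. All tumors grew in the gastrocnemius muscle of 129/SvJae mice. Primary p53/MCA tumors were started in p53FL/FL mice aged 6 to 10 weeks by adenovirus carrying Cre, which deletes Trp53 (p53) in infected cells, and by 300 µg of the carcinogen 3-methylcholanthrene (MCA). Each arose in its own host. Transplant (allograft) tumors grew from 50000 cells of line 402230, so that all 16 descend from 1 primary tumor through 1 cell line. The age of their hosts was not given in the sources used here. Each tumor-bearing mouse received 200 µg of the anti-PD-1 antibody muDX400 or of an isotype control, then 0 or 20 Gy to the hind limb, and tumors were taken 3 days later. The 4 treatment arms held 8 libraries each of primary and 4 each of transplant tumors. "Untreated" means 0 Gy with isotype control.

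Cytotoxic lymphocytes store perforin and granzymes in granules and release them onto a target cell, where perforin opens the membrane to the granzymes. Granzyme B cleaves caspases and their substrates, granzyme A acts by other proteolytic routes, and granzyme K is a marker of particular CD8 T cell states as well as of some NK cells. Interferon gamma, made by the same cells, induces antigen presentation and chemokines in its neighbors. NKp46 (Ncr1) and NK1.1 (Klrb1c) mark NK and other innate lymphoid cells, while NKG2D (Klrk1) is carried by NK cells and by activated CD8 T cells. In RNA from whole tumors, fewer cells of a type and less RNA per cell cannot be told apart.

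The promoters of the 3 granzymes and of Ifng are shown because Gzma and Gzmk lie side by side on chromosome 13 and Gzma passed the test of radiation where Gzmk did not, and because Gzmb and Ifng passed the test in more comparisons (5 of 20 each) than any other of the 10 genes. Each window runs from 250 bases before to 50 after the gene start in RefSeq on GRCm38.p6 and is written on the gene's own strand. The windows are chr13:113100932-113101231 on the minus strand for Gzma, chr13:113180916-113181215 on the minus strand for Gzmk, chr14:56262285-56262584 on the minus strand for Gzmb and chr10:118440796-118441095 on the plus strand for Ifng. Capitals mark matches, on either strand, to 4 motifs: AGGTGTG (T-box), TGTGGT (RUNX), GGAAGT (ETS) and TTCNNNGAA (STAT).
Gzma: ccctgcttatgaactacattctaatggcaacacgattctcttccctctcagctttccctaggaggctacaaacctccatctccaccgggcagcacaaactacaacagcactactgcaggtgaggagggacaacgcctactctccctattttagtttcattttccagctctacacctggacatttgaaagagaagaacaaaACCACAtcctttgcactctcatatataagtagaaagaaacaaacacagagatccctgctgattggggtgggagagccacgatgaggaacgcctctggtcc
Gzmk: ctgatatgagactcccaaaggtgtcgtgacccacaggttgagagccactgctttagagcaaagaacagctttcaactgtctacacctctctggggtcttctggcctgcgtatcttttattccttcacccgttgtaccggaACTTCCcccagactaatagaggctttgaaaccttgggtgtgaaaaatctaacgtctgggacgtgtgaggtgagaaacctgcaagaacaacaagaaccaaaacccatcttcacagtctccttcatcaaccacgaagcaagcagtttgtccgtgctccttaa
Gzmb: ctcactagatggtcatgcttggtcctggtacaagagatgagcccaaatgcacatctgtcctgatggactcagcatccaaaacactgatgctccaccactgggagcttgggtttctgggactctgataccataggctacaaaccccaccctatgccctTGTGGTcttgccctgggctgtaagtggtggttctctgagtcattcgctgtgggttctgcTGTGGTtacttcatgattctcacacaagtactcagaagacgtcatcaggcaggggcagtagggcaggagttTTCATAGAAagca
Ifng: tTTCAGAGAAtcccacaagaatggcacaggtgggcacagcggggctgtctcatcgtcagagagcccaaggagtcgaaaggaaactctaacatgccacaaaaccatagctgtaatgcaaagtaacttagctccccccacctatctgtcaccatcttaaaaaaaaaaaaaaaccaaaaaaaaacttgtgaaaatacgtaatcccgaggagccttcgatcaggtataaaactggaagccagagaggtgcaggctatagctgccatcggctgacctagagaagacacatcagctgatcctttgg
The RUNX letters stood 50 bases before the start of Gzma and 93 and 34 bases before that of Gzmb, the ETS letters 110 bases before that of Gzmk, and the STAT letters 249 bases before that of Ifng. A STAT match also lay in Gzmb after its start. Over all 10 genes, RUNX letters were found in 7 windows, against 16.8% of 32851 RefSeq promoter windows. ETS letters were found in 4 (background 23.8%), STAT letters in 3 (background 8.3%) and T-box letters in 1, Nkg7 (background 5.84%). No marked matches overlapped in the 4 windows printed. These matches describe letters, not binding.

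Tumor libraries held 31810461 to 54008259 counts. Levels are given in CPM, counts scaled to a common library total with TMM factors, and tests are edgeR quasi-likelihood tests with Benjamini-Hochberg adjustment over 19327 genes, in which a gene passed, or "rose" or "fell", at an adjusted p under 0.05. The labels give each library as its own tumor, so p-values measure the spread between tumors. In the main fit both models share 1 estimate of that spread for each gene. All transplant tumors come from 1 cell line, so no p-value measures the spread between transplanted lines. Some libraries stood at the edge of their group in most of the 10 genes. Replicate 4 of the untreated primary tumors was the highest of its 8 in all 10, and replicate 5 of the irradiated anti-PD-1 primary tumors was the lowest of its 8 in all 10. In 9 genes, replicate 5 of the irradiated isotype primary tumors was the highest of its group, and replicate 2 of the unirradiated anti-PD-1 primary tumors and replicate 4 of the untreated transplant tumors were the lowest of theirs. In 8 genes, replicate 1 of the unirradiated anti-PD-1 primary and replicate 3 of the irradiated anti-PD-1 transplant tumors were the highest and replicate 8 of the irradiated isotype primary tumors the lowest. The 2 libraries of line 402230 went against their labels. In the library labelled primary tumor, macrophage markers were close to 0 (Csf1r at 0.5001 CPM and Lyz2 at 0.0909 CPM), and in the library labelled cell line they were high (Csf1r at 233 CPM and Lyz2 at 735 CPM). Neither entered a main comparison. The counting's strand setting was not stated, and Gzmk overlaps Esm1 and Ifng overlaps Gm49751 in the annotation, so counts of both are uncertain to that extent. The aligned genome is that of C57BL/6J, and the Klr genes differ between strains; what this does to Klrk1 and Klrb1c counts was not tested.

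In untreated tumors, Gzmb was the most abundant of the 10 per length and Ifng among the least. Per kilobase of annotated exon, untreated primary tumors held 15.9 ± 26.4 CPM of Gzmb (mean ± SD, n = 8), 8.67 ± 13.5 of Gzma, 7.76 ± 7.22 of Nkg7, 4.83 ± 7.68 of Prf1 and 2.94 ± 2.98 of Ncr1. Klrk1 stood at 1.10 ± 0.900, Klrb1c at 0.868 ± 0.729, Gzmk at 0.812 ± 0.742, Fasl at 0.649 ± 0.671 and Ifng at 0.116 ± 0.121 CPM per kilobase. The SD exceeded the mean for 6 of the 10, and the means of neighbors in this order differed by less than the larger SD of the 2. In untreated transplant tumors (n = 4), Gzmb again led at 30.6 ± 19.1 CPM per kilobase, followed by Nkg7 at 20.3 ± 8.35 and Gzma at 13.0 ± 13.3. Klrb1c was last at 0.143 ± 0.0823 CPM per kilobase, below Ifng at 0.845 ± 0.589. Klrk1 has 7183 bases of annotated exon, the most of the 10, over which its counts are divided.

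**Figure D1:**
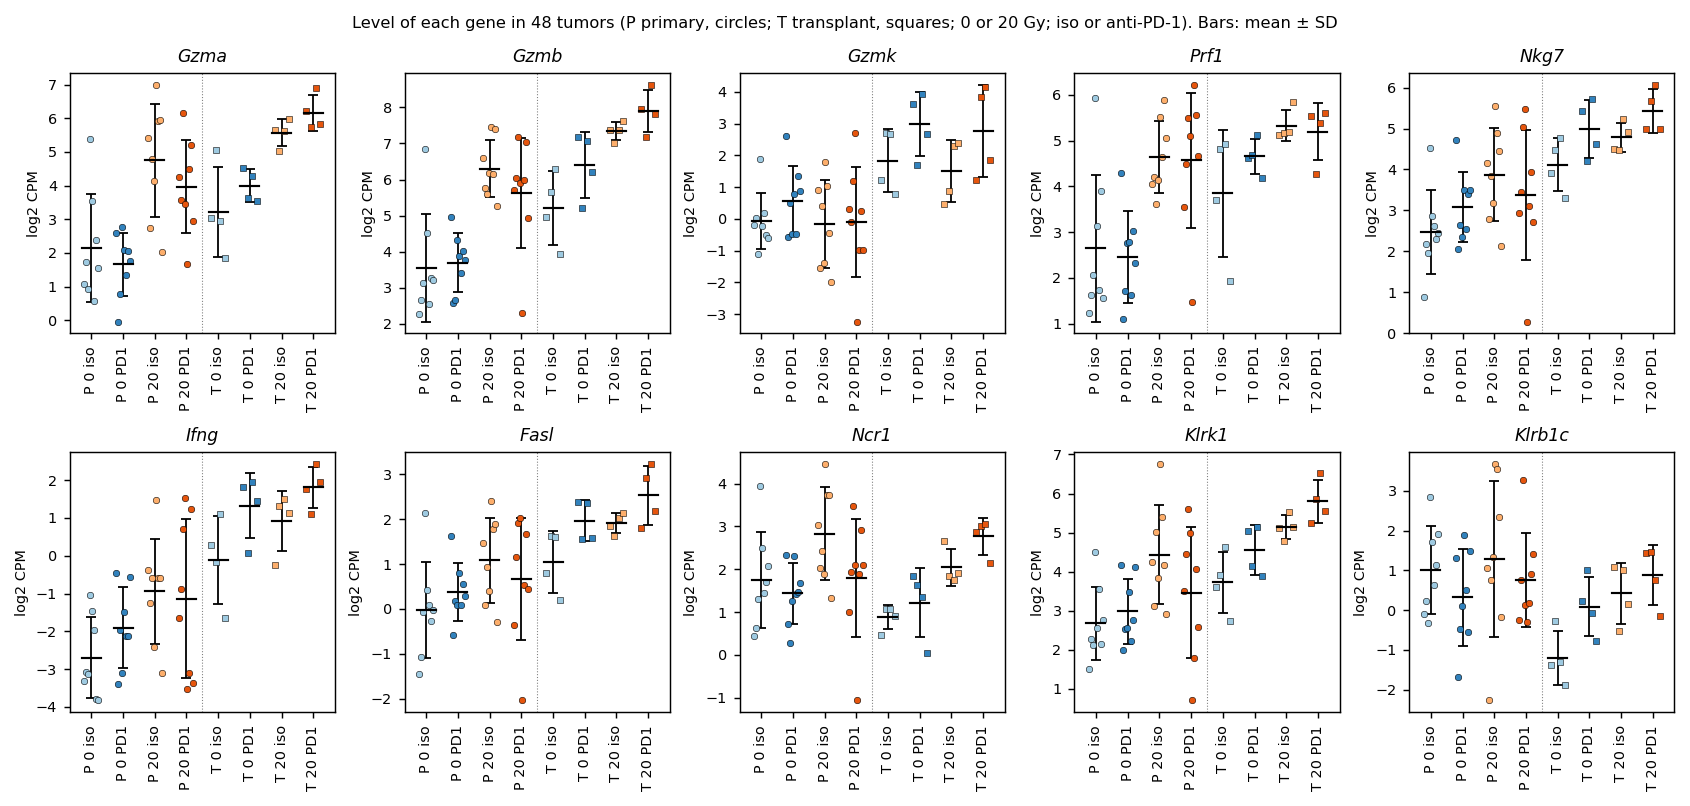
Each panel plots 1 gene: the vertical axis is log2 CPM, each point is 1 tumor, and the bars are mean ± SD for the 8 groups (P primary, n = 8; T transplant, n = 4; dose in Gy; iso, isotype control; PD1, anti-PD-1). Gzma and Gzmb stand higher at 20 Gy in both models, Gzmk does not, and Klrb1c is lowest in untreated transplant tumors.

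Radiation was compared first in primary tumors, averaged over the 2 antibodies. Of the 10 genes, 7 rose, 0 fell, and 16.8% of all tested genes rose in this comparison. Gzma, Gzmb, Ifng and Prf1 had the 4 largest estimates, log2 fold changes from 1.73 to 2.47, while Gzmk, also a granzyme, stayed at -0.05 ± 0.44. The median log2 fold change of the 10 was 1.25, beside 0.00 over all tested genes. For Gzma, the lowest, median and highest untreated primary tumors held 1.43, 3.09 and 41.3 CPM, and those given 20 Gy with isotype control held 4.06, 35.3 and 126.9 CPM. Under anti-PD-1 the same values were 0.927, 3.72 and 6.73 CPM at 0 Gy and 3.15, 15.4 and 71.4 CPM at 20 Gy. Under anti-PD-1, 7 of 8 irradiated tumors lay above every unirradiated one, and under isotype control 4 of 8 did. The averaged log2 fold change of Gzma was 2.47 ± 0.46 (SE, adjusted p = 6.19e-05) by edgeR. Gzmb, the granzyme that activates caspases, ran at 4.81, 8.93 and 115.6 CPM in untreated primary tumors and 38.4, 72.0 and 176 CPM after 20 Gy with isotype control. Under anti-PD-1 it ran at 5.92, 14.1 and 30.9 CPM at 0 Gy and 4.91, 61.6 and 146 CPM at 20 Gy. The untreated tumor at 115.6 CPM overlapped the irradiated ones, and the irradiated anti-PD-1 tumor at 4.91 CPM lay below every unirradiated one of that antibody. The log2 fold change of Gzmb was 2.11 ± 0.39 (SE, adjusted p = 6.19e-05) by edgeR. Prf1, the pore-forming perforin, ran at 2.30, 3.73 and 60.5 CPM in untreated tumors and 12.1, 21.7 and 59.1 CPM after 20 Gy with isotype control. No irradiated tumor was above the highest untreated one, and 6 of 8 untreated tumors were below every irradiated one. Under anti-PD-1 the levels were 2.09, 5.89 and 19.5 CPM at 0 Gy and 2.74, 29.7 and 74.0 CPM at 20 Gy, with 6 of 8 irradiated tumors above all unirradiated ones. Its averaged log2 fold change was 1.73 ± 0.40 (SE, adjusted p = 0.00104) by edgeR.

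Gzmk did not pass the test of radiation in primary tumors. Its lowest, median and highest levels were 0.418, 0.817 and 3.62 CPM untreated and 0.204, 0.978 and 3.39 CPM after 20 Gy with isotype control, and 0.618, 1.51 and 6.00 CPM and 0.0587, 1.01 and 6.51 CPM in the anti-PD-1 groups. The groups overlapped throughout, and the averaged log2 fold change was -0.05 ± 0.44 (SE, adjusted p = 0.949) by edgeR, with a 95% interval from -0.92 to 0.82. Gzma, its neighbor on chromosome 13, had an interval from 1.57 to 3.37. The direction of Gzmk changed when single tumors were left out. Without replicate 4 of the untreated group it was 0.22 and without replicate 1 of the unirradiated anti-PD-1 group 0.21, and without any of 10 other tumors at most 0.07. Nkg7, a protein of the cytotoxic granule membrane, held 1.82, 5.17 and 22.9 CPM in untreated tumors and 4.33, 16.1 and 46.6 CPM after 20 Gy with isotype control, where 2 of 8 irradiated tumors lay above all untreated ones. It rose, at an averaged log2 fold change of 1.04 ± 0.35 (SE, adjusted p = 0.0212) by edgeR. The call for Nkg7 was lost without replicate 5 of the irradiated isotype group or replicate 4 of the irradiated anti-PD-1 group, at adjusted p of 0.0544 and 0.0568 by edgeR, with the muscle covariate, at 0.0757, and with limma voom, at 0.121.

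Ifng, the gene for interferon gamma, was the scarcest of the 10 in untreated primary tumors and rose after radiation. The lowest, median and highest levels were 0.0227, 0.0688 and 0.443 CPM untreated and 0.0681, 0.615 and 2.71 CPM after 20 Gy with isotype control, where 5 of 8 irradiated tumors lay above all untreated ones. Under anti-PD-1 they were 0.0476, 0.195 and 0.687 CPM at 0 Gy and 0.0391, 0.384 and 2.83 CPM at 20 Gy, with wide overlap. The averaged log2 fold change was 1.99 ± 0.51 (SE, adjusted p = 0.00271) by edgeR. Limma voom gave an adjusted p of 0.074, within a range from 0.000215 to 0.0740 over 39 alternatives. Fasl, whose product kills through the Fas receptor, ran from 0.320 to 4.38 CPM with a median of 0.917 untreated and from 0.771 to 5.23 CPM with a median of 2.29 after 20 Gy with isotype control. It did not pass, at 0.79 ± 0.32 (SE, adjusted p = 0.0553) by edgeR, and it did pass with DESeq2 (adjusted p = 0.0272). Leaving out 1 of 8 tumors of the 32, among them replicate 4 of the untreated group, also brought Fasl past the threshold.

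Among the receptors, Klrk1 (NKG2D, which binds stress ligands) and Ncr1 rose and Klrb1c did not pass. Klrk1 held 2.80, 5.36 and 22.5 CPM in the lowest, median and highest untreated primary tumors and 7.56, 18.6 and 107.9 CPM after 20 Gy with isotype control. Of the irradiated tumors, 3 lay above all untreated ones. Under anti-PD-1 it held 3.97, 6.29 and 17.9 CPM at 0 Gy and 1.58, 14.1 and 48.8 CPM at 20 Gy, where 3 of 8 irradiated tumors lay above all unirradiated ones and 2 below them all. The averaged log2 fold change of Klrk1 was 1.47 ± 0.37 (SE, adjusted p = 0.00226) by edgeR. It was 1.99 under isotype control and 0.95 ± 0.52 (SE, adjusted p = 0.239) under anti-PD-1, by edgeR, where it did not pass. Ncr1, the gene for NKp46, held 1.31, 2.94 and 15.3 CPM untreated and 2.45, 6.72 and 21.96 CPM after 20 Gy with isotype control, and 1 of 8 irradiated tumors lay above all untreated ones. Its log2 fold change of 0.82 ± 0.33 (SE, adjusted p = 0.0491) by edgeR was at the threshold, and the call held in 13 of 32 tests that left out 1 tumor. Klrb1c, the gene for NK1.1, held 0.748, 1.82 and 7.17 CPM untreated and 0.159, 2.26 and 12.7 CPM after radiation, and did not pass at 0.72 ± 0.43 (SE, adjusted p = 0.203) by edgeR.

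**Figure D2:**
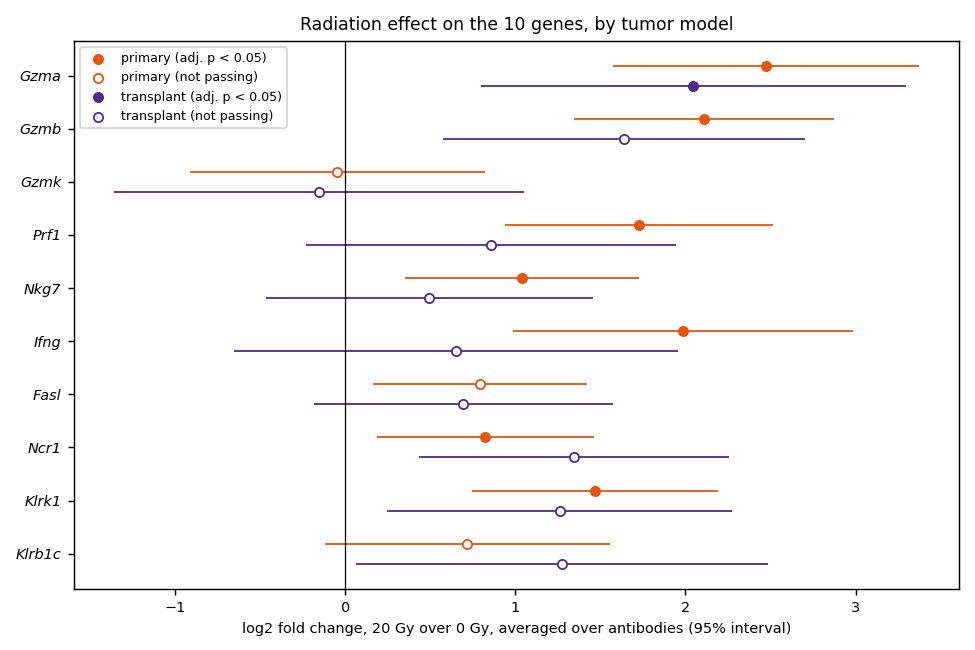
The horizontal axis is the log2 fold change of 20 over 0 Gy averaged over antibodies, with its 95% interval, for each of the 10 genes in primary (orange) and transplant (purple) tumors; filled points passed the adjusted threshold. Gzma reads 2.47 and 2.05, and Gzmk lies near 0 in both models.

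Within each antibody, 5 of the 10 genes rose after radiation in primary tumors given isotype control (background 9.19% of genes) and 3 in those given anti-PD-1 (background 7.92%). Gzma and Gzmb rose under both, by 2.32 and 2.63 and by 1.99 and 2.23 on the log2 scale. Nkg7 (1.41), Ifng (2.27) and Klrk1 (1.99) passed under isotype control, and Prf1 (2.26) under anti-PD-1. The isotype call of Nkg7 was lost without any of 12 of the 16 tumors taken alone, at adjusted p of up to 0.15, and without a filter, with limma voom, with the muscle covariate and in the fit to the 2 groups alone. That of Ifng was lost with limma voom, at an adjusted p of 0.0805. Whether the 2 antibody arms differed was not tested. Single tumors moved the isotype count. It was 8 without replicate 4 of the untreated group, 3 without its replicate 1 or 8, and 2, Gzma and Gzmb, without replicate 5 of the irradiated group. The anti-PD-1 count was 3 with each of the 16 tumors left out in turn. Fitted to the 2 groups compared alone, the isotype count was 3, as Gzma (adjusted p = 0.0556 by edgeR) and Nkg7 did not pass.

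In transplant tumors, Gzma was the 1 gene of the 10 that rose after radiation averaged over antibodies in the fit to all 48 tumors (background 5.85% of genes). Its 4 untreated tumors held 8.16, 32.9, 7.61 and 3.56 CPM, in order of replicate, and its 4 tumors given 20 Gy with isotype control held 50.4, 32.4, 49.7 and 63.7 CPM. With anti-PD-1 the values were 23.0, 12.5, 19.4 and 11.7 CPM at 0 Gy and 74.4, 52.9, 119.7 and 56.4 CPM at 20 Gy. One untreated tumor reached the level of the lowest irradiated one, and under anti-PD-1 the doses did not overlap. The log2 fold change was 2.05 ± 0.64 (SE, adjusted p = 0.0382) by edgeR, but the call was lost, at adjusted p of up to 0.0860, without replicate 1, 3 or 4 of the untreated group, 2 or 4 of the unirradiated anti-PD-1 group, 3 or 4 of the irradiated isotype group or 3 of the irradiated anti-PD-1 group. The count was then 0, except without untreated replicate 3, where Gzmb passed. Gzmb held 31.1, 50.8, 78.8 and 15.2 CPM untreated and 165, 128.2, 165 and 197 CPM after 20 Gy with isotype control. It held 144.1, 37.0, 133.5 and 73.4 CPM and 246, 146, 393 and 224 CPM at the 2 doses of the anti-PD-1 groups. All irradiated tumors lay above all unirradiated ones under each antibody, and the log2 fold change of 1.64 ± 0.54 (SE, adjusted p = 0.0562) by edgeR missed the threshold. The share of all tested genes whose doses separate without overlap was not counted. Limma voom and DESeq2 passed it, at adjusted p of 0.0139 and 0.019, and the adjusted p ran from 0.00348 to 0.123 over the alternatives.

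The receptor genes Ncr1 and Klrk1 were higher in every irradiated transplant tumor than in the unirradiated ones of the same antibody. Neither passed by edgeR in the fit to all 48 tumors. Fitted to the transplant groups alone by edgeR, Gzmb, Ncr1, Klrk1 and Klrb1c passed beside Gzma, at adjusted p of 0.00348, 0.00143, 0.0049 and 0.0255. With DESeq2, Ncr1 passed at an adjusted p of 0.0333. The share of all tested genes that rose in these other fits is not given here. How many of all tested genes were higher in every irradiated tumor was not counted. Ncr1 held 1.34, 2.04, 2.05 and 1.84 CPM untreated and 6.33, 3.53, 3.32 and 3.72 CPM after 20 Gy with isotype control. It held 3.55, 3.06, 2.49 and 0.989 CPM and 7.30, 8.02, 8.30 and 4.36 CPM under anti-PD-1. The doses did not overlap under either antibody, with a log2 fold change of 1.34 ± 0.47 (SE, adjusted p = 0.0707) by edgeR. For Klrk1 the doses did not overlap either, at 12.1, 15.2, 24.8 and 6.68 CPM against 34.5, 27.5, 46.3 and 35.6 CPM with isotype control, and the averaged value was 1.26 ± 0.52 (SE, adjusted p = 0.147), by edgeR. The remaining genes read 1.27 ± 0.62 for Klrb1c, 0.86 ± 0.56 for Prf1, 0.69 ± 0.45 for Fasl, 0.65 ± 0.67 for Ifng, 0.49 ± 0.49 for Nkg7 and -0.15 ± 0.61 for Gzmk, with adjusted p from 0.242 to 0.941 by edgeR. Within each antibody, none of the 10 passed in transplant tumors by edgeR, DESeq2 or limma voom (background 1.92% and 0.595% of genes higher or lower), and 2 had an unadjusted p under 0.05 in each, as did 12.1% and 13.1% of all tested genes with isotype control and anti-PD-1. Fitted to the 2 isotype groups alone, Gzmb and Ncr1 passed, and the share of all tested genes in that fit is not given here. No difference in the radiation effect between the models passed for any of the 10 by edgeR, DESeq2 or limma voom (background 0.0259%), and none had an unadjusted p under 0.05, as 8.55% of all tested genes did. The difference in log2 fold change, transplant minus primary, ran from -1.34 (Ifng) to 0.56 (Klrb1c). For Gzma it was -0.43 ± 0.75, with a 95% interval from -1.90 to 1.05, and whether the counts of 7 and 1 differ was not otherwise tested.

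Other genes of the same pathways were read beside them. T cell markers did not pass the test, as 0 of 10 rose after radiation in primary tumors (median log2 fold change 0.58) and 0 of 10 in transplant tumors (median -0.02). Of 14 genes of NK cell identity, 5 rose in primary tumors, led by Txk, a kinase of NK and T cells (1.16 ± 0.28), and Cd244a, the receptor 2B4 (1.003 ± 0.28). In transplant tumors 2 rose, Cd244a (1.98 ± 0.41) and Sh2d1b1, a signaling adaptor of NK cells (1.71 ± 0.52). Of 14 other granule and effector genes, 9 rose in primary tumors, among them Tnf (1.85 ± 0.27), the granule proteoglycan Srgn (1.79 ± 0.26), Gzmc (1.503 ± 0.51) and the death ligand Tnfsf10 (1.48 ± 0.23). In transplant tumors 4 rose, led by Tnf (1.74 ± 0.38). Tnf, Srgn and Tnfsf10 are also made by myeloid cells. Of 11 tested cytokines and chemokines that induce or attract cytotoxic cells, 9 rose in primary tumors, with Cxcl9 (2.54 ± 0.40) and Ccl5 (2.48 ± 0.31) highest, and 5 in transplant tumors, led by Ccl5 (2.07 ± 0.44). Of 9 interferon gamma targets 8 rose in primary tumors, led by Cxcl11 (3.24 ± 0.41) and Ido1 (3.03 ± 0.49), and 1, Cxcl11 (2.36 ± 0.56), in transplant tumors. Values in parentheses are log2 fold changes ± SE. Beside these counts, 16.8% of all tested genes rose in primary and 5.85% in transplant tumors. The median log2 fold change over all tested genes was 0.00 in primary and -0.02 in transplant tumors.

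Genes listed as opposing granzymes or acting in the target cell were read next, in comparisons in which 16.8% of all tested genes rose and 14.2% fell in primary tumors and 5.85% rose in transplant tumors. All 5 serpins listed as granzyme inhibitors rose in primary tumors, among them Serpina3g (1.88 ± 0.39), Serpina3n (1.64 ± 0.41) and Serpinb9b (1.33 ± 0.35), and 0 of 5 passed in transplant tumors by edgeR. Whether each of the 5 inhibits a granzyme was not tested. Of 8 effector receptors and death genes, 4 rose in primary tumors, led by the death receptor Fas (1.24 ± 0.20). In transplant tumors Casp8 rose (0.43 ± 0.09). Of 6 tested NKG2D ligands and adaptors, the ligand Ulbp1 fell in primary tumors (-1.32 ± 0.23), while the adaptors Tyrobp (1.05 ± 0.21) and Hcst (0.63 ± 0.22) rose, and Tyrobp rose in transplant tumors (1.05 ± 0.30). Over the 48 tumors Tyrobp averaged 257 CPM and Klrk1 22.2 CPM, and which cells carried the rise of Tyrobp was not tested. H60c did not pass the filter on low counts, and Raet1a, Raet1b and Raet1c were not analysed here.

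Of 8 skeletal muscle genes 7 rose in primary tumors (median log2 fold change 2.47), with summed levels of 61.4 to 5552 CPM in untreated tumors and 272 to 44242 CPM after 20 Gy with isotype control. In transplant tumors 0 of 8 passed. With the muscle level as a covariate, 5 of the 10 cytotoxic genes rose, Gzma, Gzmb, Prf1, Ifng and Klrk1. The share of all tested genes that rose with the covariate is not given here. Macrophage markers rose for 4 of 6 genes in primary and 3 of 6 in transplant tumors, and neutrophil markers for 5 of 6 and 1 of 6. Summed macrophage levels were 1683 to 3870.0 CPM in untreated primary tumors and 2245 to 5646 CPM after 20 Gy with isotype control, and summed neutrophil levels 13.6 to 79.8 CPM and 31.5 to 772 CPM. Mast cell markers fell for 3 of 6 in primary tumors and 0 of 6 passed in transplant tumors, with summed levels of 33.7 to 925 CPM in untreated primary tumors and 8.77 to 597 CPM after 20 Gy with isotype control. Of B and plasma cell markers 1 of 6 rose in primary and 0 in transplant tumors, beside 16.8% and 5.85% of all tested genes. Of 6 plasmacytoid dendritic cell markers 2 rose and 1 fell in primary tumors and 1 rose in transplant tumors. The part of the macrophage, neutrophil, mast cell and other immune markers in the result was not tested.

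Transplant tumors were next compared with primary tumors under each treatment. Host, tumor origin and passage through a cell line differ together between the models and cannot be told apart. Without treatment, Ifng was higher and Klrb1c lower in transplant tumors (background 3.88% of genes higher and 6.41% lower). Ifng held 1.17, 0.848, 2.09 and 0.269 CPM in the 4 untreated transplant tumors, and the lowest, median and highest untreated primary tumors held 0.0227, 0.0688 and 0.443 CPM. Of the 4 transplant tumors, 3 lay above every primary tumor. The log2 fold change was 2.85 ± 0.83 (SE, adjusted p = 0.0213) by edgeR. Klrb1c held 0.334, 0.779, 0.360 and 0.224 CPM in the transplant and 0.748, 1.82 and 7.17 CPM in the primary tumors. Of the transplant tumors, 3 lay below every primary tumor and 1 just above the lowest, with a log2 fold change of -2.59 ± 0.85 (SE, adjusted p = 0.0432) by edgeR, a call lost without 7 of the 12 tumors, each taken alone. Ncr1, the other NK marker, was on the same side at -1.31 ± 0.60 (SE, adjusted p = 0.155) by edgeR and did not pass. Ncr1 held 1.34, 2.04, 2.05 and 1.84 CPM in transplant tumors. Without replicate 4 of the untreated primary group, 5 genes were higher in transplant tumors, namely Gzmb, Gzmk, Prf1, Nkg7 and Ifng, and Klrb1c did not pass. Without replicate 3 of the untreated transplant group none passed, and without its replicate 1, 2 or 4, or replicate 5 or 8 of the primary group, Ifng alone did.

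With anti-PD-1 at 0 Gy, 4 of the 10 genes were higher in transplant tumors (background 3.39%). Gzmb held 144.1, 37.0, 133.5 and 73.4 CPM in transplant tumors, above all 8 primary tumors, whose lowest, median and highest held 5.92, 14.1 and 30.9 CPM. Its log2 fold change was 2.71 ± 0.63 (SE, adjusted p = 0.00490) by edgeR. Ifng held 3.49, 1.001, 3.85 and 2.66 CPM in transplant tumors, again above all primary tumors at 0.0476, 0.195 and 0.687 CPM, a log2 fold change of 3.23 ± 0.80 (SE, adjusted p = 0.00891) by edgeR. The share of all tested genes whose models separate without overlap was not counted. Gzmk, at 12.3, 3.18, 15.3 and 6.34 CPM against 0.618, 1.51 and 6.00 CPM, passed at 2.28 ± 0.73 (SE, adjusted p = 0.0448) by edgeR, with 1 primary tumor among the transplant tumors. Nkg7 passed at 1.78 ± 0.58 (SE, adjusted p = 0.0485) by edgeR. Gzma at 2.18 ± 0.73 (SE, adjusted p = 0.0567), Prf1 at 1.92 ± 0.65 (SE, adjusted p = 0.0610) and Fasl at 1.54 ± 0.53 (SE, adjusted p = 0.0630) just missed the threshold of edgeR and passed with DESeq2, which called 7 of the 10. Skeletal muscle markers were at a median log2 fold change of 1.80, with 0 of 8 passing, and with the muscle covariate Gzma, Gzmb, Prf1 and Ifng passed. The background of 3.39% is that of the main edgeR fit, and those of DESeq2 and of the covariate fit are not given here. Gzmb and Ifng passed whichever tumor was left out. The calls of Gzmk and Nkg7 held in 2 and 2 of 12, and the count was 6 without replicate 1 of the primary group and 2 without replicate 1, 3 or 4 of the transplant or replicate 2, 3, 5, 6, 7 or 8 of the primary group.

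At 20 Gy with isotype control none of the 10 passed between the models by edgeR, DESeq2 or limma voom (background 4.87%), and 1, Klrb1c, had an unadjusted p under 0.05, as did 18.6% of all tested genes. At 20 Gy with anti-PD-1 Gzmk passed by edgeR, alone of the 10 (background 3.04% of genes higher). It held 2.29, 14.2, 17.8 and 3.55 CPM in transplant tumors, and the lowest, median and highest primary tumors held 0.0587, 1.01 and 6.51 CPM. One primary tumor lay among the transplant tumors, and the log2 fold change was 2.56 ± 0.73 (SE, adjusted p = 0.0294) by edgeR. DESeq2 called 4 of the 10 and limma voom 7. The background of 3.04% is that of edgeR, and those of the other tools are not given here. The edgeR count was 5 without replicate 3 or replicate 4 of the primary group, 2 without its replicate 7, and 0 without its replicate 2, 6 or 8 or without replicate 2 or 3 of the transplant group. Interferon gamma targets were higher in transplant tumors for 7 of 9 genes untreated, 7 with anti-PD-1, 1 after 20 Gy and 1 after both, and Ido1 passed in all 4, at 5.11 ± 0.80, 5.31 ± 0.77, 4.35 ± 0.74 and 2.96 ± 0.71. Of 14 genes of NK cell identity, Klri2 was lower in untreated transplant tumors, which held 0 to 3 counts of it against 26 to 214 in untreated primary tumors, and Cd244a was higher after 20 Gy with isotype control (1.87 ± 0.46). Of 10 T cell markers, Cd8a was higher in untreated transplant tumors (2.19 ± 0.70), and 0 passed under the other 3 treatments. Ulbp1 was lower in transplant tumors at 0 Gy with isotype control (-2.09 ± 0.44) and with anti-PD-1 (-2.17 ± 0.45).

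**Figure D3:**
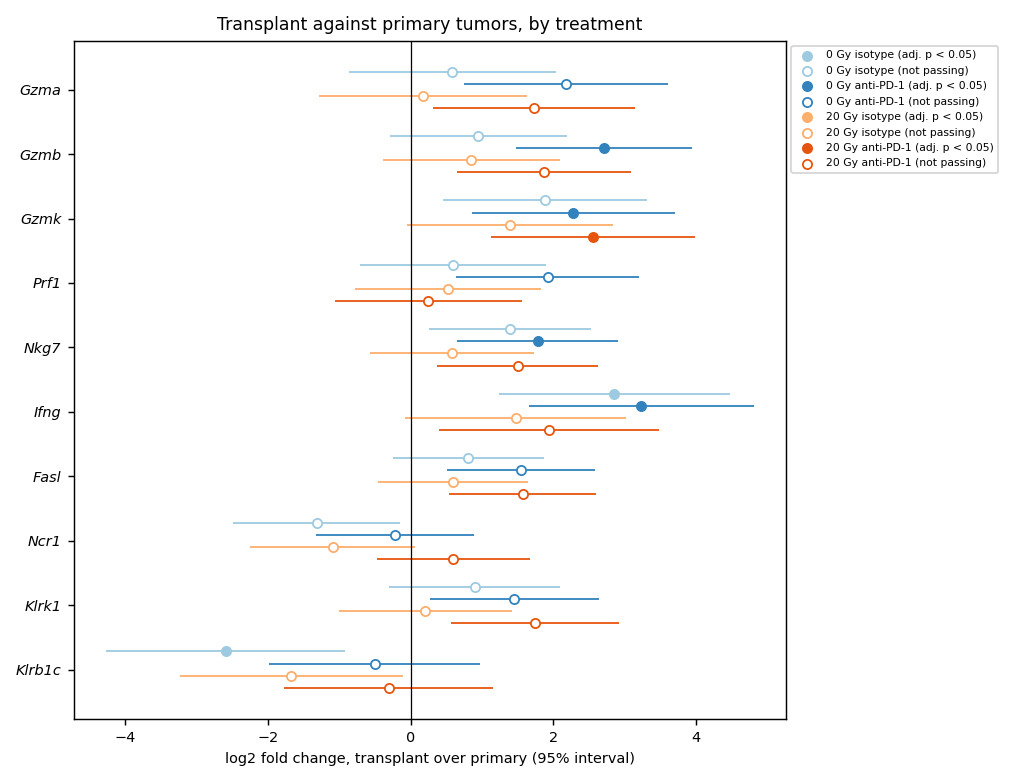
The horizontal axis is the log2 fold change of transplant over primary tumors with its 95% interval, in 4 treatments (colors), for each of the 10 genes; filled points passed. Most estimates lie right of 0, at up to 3.23 for Ifng, while Klrb1c lies left of 0 in all 4.

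None of the 10 genes passed the test of anti-PD-1 against isotype control in either model by edgeR, DESeq2 or limma voom, at either dose or averaged (background 0.0155% of genes in primary and 0% in transplant tumors averaged over doses, and 0% and 0% in primary and 0% and 0% in transplant tumors at 0 and 20 Gy). At an unadjusted p under 0.05 there were 2 in primary tumors, Gzma (-1.08 ± 0.44) and Ncr1 (-0.79 ± 0.33), and 1 in transplant tumors, Gzmk (1.34 ± 0.63). Of all tested genes, 6.89% and 1.98% had such a p averaged over doses, and at 0 and 20 Gy 3.66% and 10.1% in primary and 0.678% and 2.65% in transplant tumors. The median of Gzma in primary tumors was 3.09 CPM untreated and 3.72 CPM with anti-PD-1 at 0 Gy. At 20 Gy it was 35.3 and 15.4 CPM. The median of Ncr1 was 2.94 and 2.69 CPM at 0 Gy and 6.72 and 4.01 CPM at 20 Gy. Replicate 4 of the untreated primary group held 41.3 CPM of Gzma and was the highest of its group in all 10 genes. How far the estimates rest on that tumor is not given here. In primary tumors 7 of the 10 estimates were negative and in transplant tumors all 10 were positive, with medians of -0.32 and 0.79 on the log2 scale. Over all tested genes the medians were -0.0019 and -0.0025. The 10 genes were read in the same tumors, so their signs are not separate observations. The difference between the models, transplant minus primary, was positive for all 10 and had an unadjusted p under 0.05 for 4 of them, Klrb1c (1.73 ± 0.75), Gzma (1.57 ± 0.76), Gzmb (1.39 ± 0.65) and Ncr1 (1.39 ± 0.56), as for 2.71% of all tested genes. None passed after adjustment (background 0%), and neither DESeq2 nor limma voom called any. Combined treatment against none shares its untreated tumors with the comparisons above. In primary tumors Gzmb rose by 1.60 ± 0.54 (SE, adjusted p = 0.0340) and Ifng by 2.65 ± 0.74 (SE, adjusted p = 0.0105) on the log2 scale by edgeR (background 11.4% of genes). The call of Ifng was lost with limma voom, at an adjusted p of 0.196. Untreated primary tumors held 1 to 17 counts of Ifng, and in these groups alone it did not pass the filter on low counts. Fitted to the compared groups alone by edgeR, Gzmb did not pass (adjusted p = 0.158). In transplant tumors none passed by edgeR (background 4.41%), 6 had an unadjusted p under 0.05, as did 16.8% of all tested genes, DESeq2 called 3 and limma voom 2. Backgrounds of DESeq2 and limma voom are not given here. Gzmb came nearest at 2.52 ± 0.79 (SE, adjusted p = 0.0575) by edgeR, with all 4 treated tumors, at 246, 146, 393 and 224 CPM, above all 4 untreated ones, and it passed without replicate 3 of the untreated group. The groups did not overlap for Gzma, Nkg7, Ifng, Fasl, Ncr1, Klrk1 and Klrb1c either. The share of all tested genes without overlap was not counted. In primary tumors the count was 7 without replicate 4 of the untreated group, 5 without replicate 5 of the treated group, and 1, Ifng, without replicate 1, 2, 3, 6, 7 or 8 of the untreated or replicate 3 or 7 of the treated group.

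Gzmb and Ncr1 were then set against Cd3e, a subunit of the T cell receptor complex, within each tumor, to ask whether they moved with T cell RNA. The measure is log2 CPM of the gene minus log2 CPM of Cd3e, and 6 differences of group means were tested by exact two-sided permutation. Relative to Cd3e, Gzmb rose after radiation in primary tumors, from 1.87 ± 1.44 untreated to 4.21 ± 1.004 after 20 Gy with isotype control (mean ± SD, n = 8 each). The difference was 2.34 (exact permutation p = 0.00233, Benjamini-Hochberg adjusted over 6 tests 0.00699), and 5 of 8 irradiated tumors lay above all untreated ones. In transplant tumors it went from 1.64 ± 0.30 to 3.84 ± 0.71 (n = 4 each), with all 4 irradiated tumors above all untreated ones. That difference of 2.19 had an exact permutation p of 0.0286, the smallest that 4 against 4 can give, and 0.0571 after adjustment. Between untreated models Gzmb relative to Cd3e differed by -0.22 (exact permutation p = 0.766). Ncr1 relative to Cd3e differed between the untreated models, at -2.69 ± 0.70 in transplant (n = 4) and 0.06 ± 1.16 in primary tumors (n = 8). The difference of -2.76 had an exact permutation p of 0.00202, the smallest that 4 against 8 can give, and 0.00699 after adjustment, and all 4 transplant tumors lay below all 8 primary tumors. Over the same tumors Cd3e itself was at a log2 fold change of 1.78 ± 0.70, which did not pass (adjusted p = 0.0946 by edgeR). After radiation, Ncr1 relative to Cd3e changed by 0.67 in primary (exact permutation p = 0.184) and 1.23 in transplant tumors (exact permutation p = 0.0857), neither passing.

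**Figure D4:**
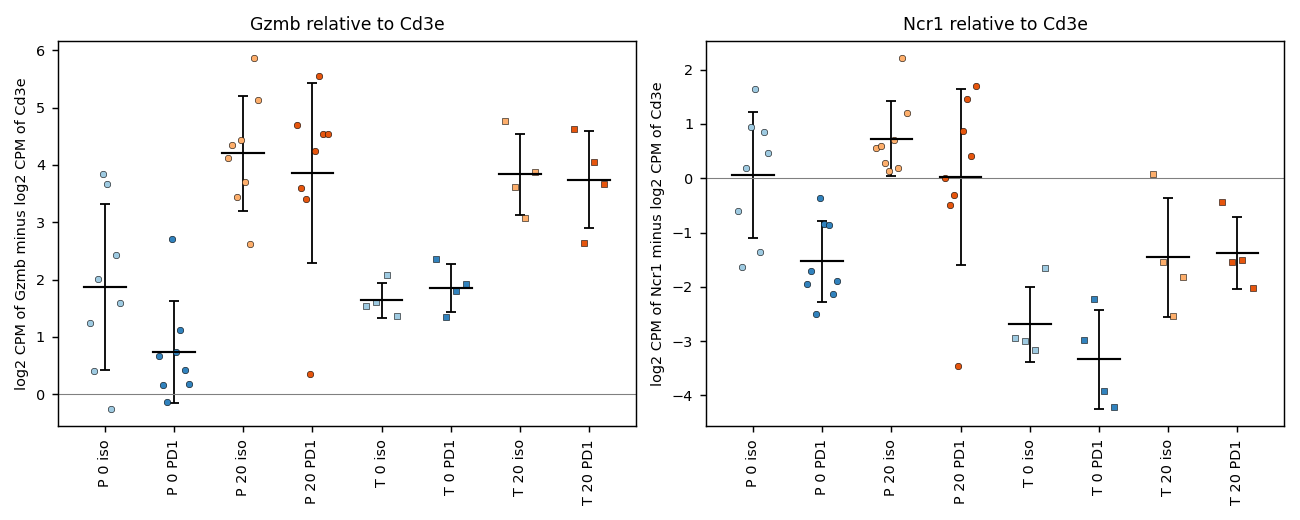
The vertical axes are log2 CPM of Gzmb (left) or Ncr1 (right) minus log2 CPM of Cd3e, each point is 1 tumor, and bars are mean ± SD by group (labels as in the plot of levels). Untreated transplant tumors average -2.69 for Ncr1 and untreated primary tumors 0.06.

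Tumors of one group also differ among themselves, and the 10 genes were compared with Cd3e and Ncr1 over tumors after the group means were subtracted. Over 32 primary tumors, 9 of 10 genes followed Cd3e and 9 of 9 followed Ncr1 at an adjusted permutation p under 0.05 (38 pairs in both models, 100000 permutations within groups). Over 16 transplant tumors, 6 of 10 followed Cd3e and 1 of 9 followed Ncr1. How many of all tested genes follow Cd3e or Ncr1 was not counted, so these counts cannot be read as particular to the 10 genes. By Pearson's r, Gzmk was the gene closest to Cd3e in both models, at r = 0.91 in primary tumors (rho = 0.83, permutation p of both 1e-05, the smallest 100000 can give, adjusted 3.45e-05 for r) and r = 0.90 in transplant tumors (rho = 0.81, permutation p 2e-05 and 0.00027, adjusted 5.85e-05 for r). By rho, Klrk1 was closest in primary tumors (0.85), and in transplant tumors Nkg7 (0.89) and Klrk1 (0.86) were closer than Gzmk. Without the 2 tumors farthest from the Cd3e median, r of Gzmk was 0.85 and 0.90. Such tumors were picked on levels before group means were subtracted, and need not be those that weigh most on r. Prf1 was the gene that did not pass against Cd3e in primary tumors, at r = 0.41 (rho = 0.26, permutation p 0.0378 and 0.174, adjusted 0.0552 for r). Fasl was closest to Ncr1 in primary tumors, at r = 0.93 (rho = 0.89, permutation p of both 1e-05, adjusted 3.45e-05 for r), and r was 0.90 without the 2 farthest tumors. In transplant tumors Klrb1c alone followed Ncr1, at r = 0.64 (rho = 0.70, permutation p 0.0196 and 0.00732, adjusted 0.0298 for r). Ncr1 and Cd3e themselves correlated at r = 0.64 in primary tumors (rho = 0.57, permutation p 0.00047 and 0.00153, adjusted 0.000992 for r) and r = -0.03 in transplant tumors (rho = 0.04, permutation p 0.919 and 0.908). Whether the models differed in these correlations was not tested. All points of a pair share a library and its depth.

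**Figure D5:**
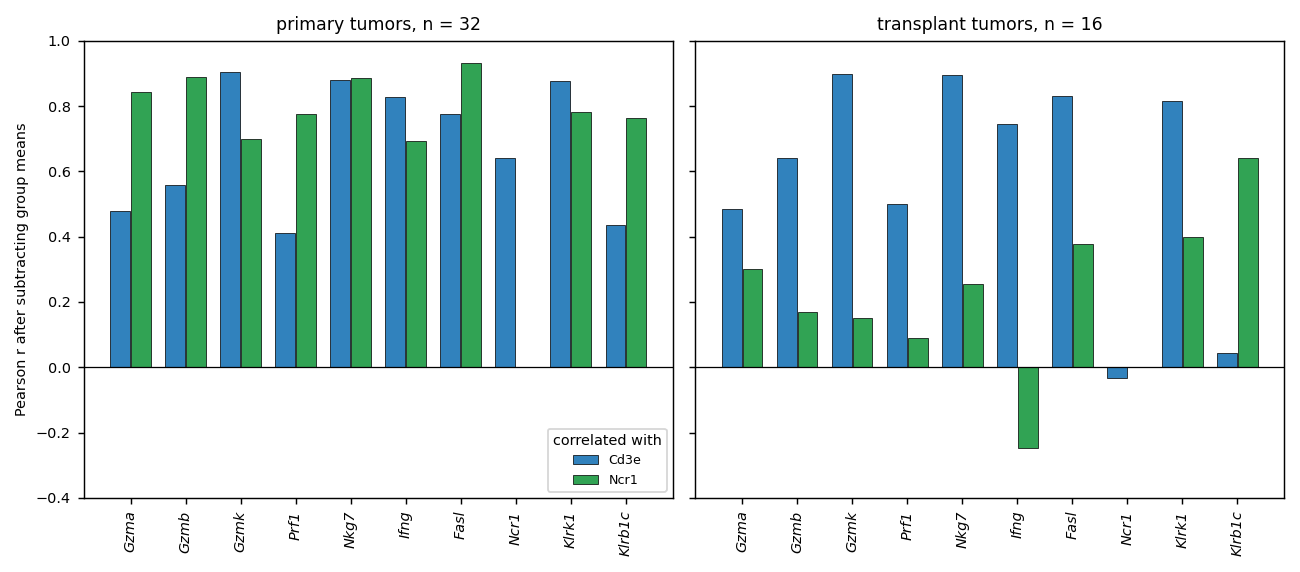
Bars give Pearson's r over tumors between each gene and Cd3e (blue) or Ncr1 (green) after group means were subtracted, in primary tumors (left, n = 32) and transplant tumors (right, n = 16); Ncr1 has no bar against itself. The green bars range from 0.69 to 0.93 at left and from -0.25 to 0.64 at right.

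The genes whose pattern was most like the mean of the 10 were listed by Spearman's rho over 48 tumors, as a description with no test. The 10 highest were Ms4a4b (0.93), Irf8 (0.93), Serpinb6b (0.92), Txk (0.92), Cst7 (0.91), Psmb9 (0.91), Unc13d (0.91), Rab19 (0.91), Cd48 (0.90) and Sash3 (0.90). Cst7 encodes cystatin F and Unc13d a factor of granule release. After group means were subtracted, the NK receptor genes Klrc1 (0.89) and Klrd1 (0.89) led, followed by Irf8 (0.89), the granule protease Ctsw (0.88) and Txk (0.88). The share of the variance of log2 CPM that lay between the 8 groups ran from 24.8% for Klrb1c and 32.8% for Ncr1 to 60.9% for Gzma and 67.9% for Gzmb.

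Last, the 10 genes were read in the 2 single libraries of line 402230, which allow no test. In the library labelled primary tumor, all 10 were at or under 3 counts of 48457411, with 8 at 0 and 1 count each of Gzmk and Klrk1. A count of 0 allows up to 0.0682 CPM. In the library labelled cell line, of 41226531 counts, all 10 were present. There Gzmb had 226 counts, or 4.88 CPM (95% exact Poisson interval 4.27 to 5.56), and Ncr1 had 79, or 1.71 CPM (1.35 to 2.13). Of the 10, Gzma, Gzmb, Prf1, Ifng, Ncr1 and Klrb1c lay within the range of untreated primary tumors on the same scaling, and Gzmk, Nkg7, Fasl and Klrk1 lay below its lowest. That range was 4.61 to 111.4 CPM for Gzmb and 1.26 to 14.8 CPM for Ncr1. Intervals cover counting error only. The library labelled primary tumor had 9 of 10 T cell markers and 4 of 6 B and plasma cell markers at 0, and the library labelled cell line had none of them at 0. The comparison describes these libraries and not a tumor against a cell line.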

How the data were processed

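The deposited values are raw counts of reads per gene. The authors selected mRNA by its poly(A) tail with oligo-dT and built stranded KAPA libraries. Their reads went through Trimmomatic 0.36 and then STAR, with mm10 and GENCODE gene models, which also counted reads per gene by the HTSeq method; the strand setting was not given in the sources used here. Gene symbols, exon lengths and positions came from a GENCODE annotation of GRCm38, which matched 37408 of 37469 identifiers, and promoters from RefSeq, which held all 10 genes.

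Counts were analysed with edgeR 4.0.16 in R 4.3.3 (filterByExpr by group, TMM factors, robust quasi-likelihood fit with 1 mean for each of 8 groups over 48 tumors, 20 contrasts, Benjamini-Hochberg adjustment over 19327 genes, threshold 0.05). Groups came from the labels. Replicate numbers follow accession order and pair nothing. No batch is given in the labels. Log2 CPM used a prior count of 2. No 2 libraries of a group matched within counting noise, since chi-square divided by its degrees of freedom was at least 85.6 in all 136 pairs. Exact permutation tests (SciPy 1.17.1) enumerated 12870, 70 or 495 splits, and correlations used 100000 permutations within groups. The edgeR script was tested on simulated data. Alternatives were DESeq2 1.42.0, limma voom 3.58.1, DESeq2 size factors, no filter, a skeletal muscle covariate, fits to the compared groups alone, the library labelled as the parental primary tumor of line 402230 added to the untreated primary tumors, and leaving out each tumor.

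The members and the gene lists were chosen with earlier results of these data known. All 10 genes are described in every group, and from each list at most 4 called genes with the largest log2 fold change were named. The 2 libraries of line 402230 were scaled with all 50 libraries and tested in nothing. One gene of a list that was called is not reported here.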

Additional observations from a re-analysis of the deposited data

Results flagged for a closer look

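Of 80 sets of tumors (10 genes in 8 groups), 4 held a tumor far from the others by Dixon's 95% critical value, and chance alone marks about 1 in 20 sets. Gzmb stood at 4.91 CPM in replicate 5 of the primary tumors that received radiation and anti-PD-1, whose next lowest tumor held 30.5 CPM. Gzmk stood at 3.62 CPM in replicate 4 of the untreated primary tumors, whose next highest held 1.09 CPM. Prf1 stood at 56.9 CPM in replicate 4 of the transplant tumors given 20 Gy with isotype control (next highest 36.6 CPM), and at 19.4 CPM in replicate 2 of those given 20 Gy with anti-PD-1 (next lowest 41.8 CPM). The same 2 primary libraries stood at the edge of their groups in all 10 genes.

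Signal also appeared outside the tumor comparisons. Scaled with all 50 libraries, the library labelled cell line 402230 held 1.88 CPM of Gzma, 4.88 of Gzmb, 0.259 of Gzmk, 2.46 of Prf1 and 1.66 of Nkg7. It held 0.108 CPM of Ifng, 0.302 of Fasl, 1.71 of Ncr1, 2.42 of Klrk1 and 0.885 of Klrb1c. All 10 exceed the 3 counts that a count of 0 allows. The library labelled as its parental primary tumor held at most 1 count of each. Macrophage markers summed to 1481 CPM in the first library and 3.73 CPM in the second.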

How the results depend on the processing

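No paired analysis was possible because the replicate numbers follow accession order and no label ties a tumor of one group to a tumor of another. The counts of genes called after radiation in primary tumors with anti-PD-1 (3) and in the comparisons of anti-PD-1, radiation by model and 20 Gy with isotype control between models (0) did not change under any alternative run. Other counts moved by over 1.5 times. Without a filter, the count was 1 for transplant against primary tumors untreated, 2 for the same with anti-PD-1 and 0 at 20 Gy with anti-PD-1, 1 for the combination in primary tumors and 0 for averaged radiation in transplant tumors. DESeq2 gave 7 and 4 between the models with anti-PD-1 at 0 and 20 Gy, 4 and 3 for the combination in primary and transplant tumors, and 3 for averaged radiation in transplant tumors. Limma voom gave 1 and 7 between the models untreated and at 20 Gy with anti-PD-1, 2 for the combination in transplant tumors, and 4 and 2 for averaged radiation in primary and transplant tumors. Fits to the compared groups alone gave 3 and 2 for radiation with isotype control in primary and transplant tumors, 7 and 0 between the models with anti-PD-1 at 0 and 20 Gy, 0 and 4 for the combination, and 5 for averaged radiation in transplant tumors. The muscle covariate gave 2 between the models at 20 Gy with anti-PD-1, and the library labelled parental primary tumor gave 1 between the untreated models. The causes were not tested. The backgrounds given above belong to the main edgeR fit, and those under these alternatives are not given here. Of 156 values of counts and of differences relative to Cd3e under these alternatives, 24 moved, and of 240 values of single genes 28 lost and 9 gained their call. Fitted to the compared groups alone, Ifng in the combination gave no value, since it did not pass that filter.

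Leaving out each tumor in turn, the count ran from 2 to 8 for radiation in primary tumors with isotype control, 0 to 5 between the untreated models, 2 to 6 and 0 to 5 between the models with anti-PD-1 at 0 and 20 Gy, 1 to 7 and 0 to 1 for the combination in primary and transplant tumors, 5 to 8 for averaged radiation in primary and 0 to 1 in transplant tumors. Values near 0 changed sign: Gzmb relative to Cd3e between the untreated models ran from -0.53 to 0.059, above 0 without replicate 4 or 5 of the untreated primary group, and the log2 fold change of Gzmk after averaged radiation from -0.42 to 0.22 in primary and -0.39 to 0.050 in transplant tumors. With the library labelled parental primary tumor added it was 0.063 in primary tumors. That library went against its label, so adding it changed the samples and not the processing. Ifng in untreated primary tumors rests on few counts, which limits how far its level can be read there.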
